A study of Mus musculus with 16 samples.

Results

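The nicotinic acetylcholine receptor of skeletal muscle and the proteins that cluster and regulate it at the neuromuscular junction were examined in cultured mouse myoblasts through 10 genes. These were the receptor subunit genes Chrna1, Chrnb1, Chrnd, Chrng and Chrne, the clustering genes Musk, Dok7 and Rapsn, and the acetylcholinesterase genes Ache and Colq. They were chosen by gene name, and every array probe carrying one of the 10 names was taken, which gave 14 of 55681 probes and 10 of 34836 gene names. Of the 10 genes, 9 passed the filter on low signal (a median log2 signal of at least 5 over the 16 arrays) and were among the 20317 genes tested, and Chrne did not pass. Myoblasts derived from satellite cells, the stem cells of muscle, came from male C57Bl/6J mice that the labels give as 11 to 13 weeks old, with no transgene and no drug. For the dispersed cultures the cells were plated on gelatin without fibers, and myofiber-associated myoblasts were stripped by trypsin from the explanted fibers on which they had been kept, after which the fibers were pelleted and discarded. RNA was taken 48 and 72 hr after isolation, with 4 one-color Agilent arrays in each of the 4 groups. A myofiber-associated replicate drew on 2 mice and a dispersed replicate on 1 mouse, and myofiber-associated 48-hr array 10 was a pool of 2 preparations. One slide carried the 8 myofiber-associated arrays and a second slide the 8 dispersed arrays, and an effect of the slide cannot be told apart from one of culture in any comparison between cultures. On both slides the times lay in different columns, so time and column cannot be told apart.

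The muscle receptor is a ring of 5 subunits that opens on binding acetylcholine released by the motor nerve. Fetal muscle makes a receptor that holds the gamma subunit (Chrng), and around birth the epsilon subunit (Chrne) takes its place at innervated junctions, while denervated fibers make gamma again. MuSK is the receptor kinase that nerve-derived agrin activates through Lrp4, Dok7 is its cytoplasmic activator, and rapsyn (Rapsn) ties receptors into clusters. Acetylcholinesterase (Ache) breaks acetylcholine down, and the collagen tail ColQ (Colq) anchors it in the synaptic basal lamina.

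The arrays were comparable in quality, with 55.2% to 64.3% of probes well above background and no saturated spot. The median SD of a gene within a group was 0.09 and 0.10 on the log2 scale at 48 and 72 hr in dispersed and 0.22 and 0.18 in myofiber-associated myoblasts. All 8 listed myoblast markers (among them Myod1 and Pax7) were well above background on every array. So were all 9 endothelial and all 8 fibroblast markers listed, so detection alone does not tell the cell type. Markers of adult muscle fibers were also present in RNA labeled as myoblast. All 12 fiber markers, such as Ckm (muscle creatine kinase) and Mb (myoglobin), were well above background on the 8 myofiber-associated arrays, and 11 or 12 of them were on the dispersed arrays. The log2 of their summed signal ran from 12.6 to 14.8 on dispersed arrays, from 19.9 to 20.6 on myofiber-associated arrays at 48 hr and from 17.6 to 19.8 at 72 hr. Of 7 motor neuron markers, 3 to 6 were well above background on an array.

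The fetal and the adult subunit were each read by a single 60-base probe. That of Chrng is shown because every value of the fetal subunit rests on these letters alone. The Chrng probe lies within chr1:89106072-89106353 of mm9 on the plus strand, a stretch longer than the probe, so that it joins separate exons.
Chrng probe: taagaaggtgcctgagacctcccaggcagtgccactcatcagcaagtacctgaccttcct

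The promoters of Chrna1 and Musk are shown with those of Chrng and Chrne. Chrna1 and Musk were taken because the difference of their changes between the cultures passed the main test, for Musk narrowly. E-boxes (CANNTG) are the sites that MyoD and myogenin bind, and the N-box (CCGGAA) is the Ets site known from synaptic genes. Promoter sequences were taken from RefSeq on GRCm38.p6, as the 250 bases before the start, 5′ to 3′ on the strand of the gene, and 7 of the 10 genes were matched. Capitals mark E-boxes and N-boxes.
Chrna1 promoter, chr2:73580339-73580588, minus strand: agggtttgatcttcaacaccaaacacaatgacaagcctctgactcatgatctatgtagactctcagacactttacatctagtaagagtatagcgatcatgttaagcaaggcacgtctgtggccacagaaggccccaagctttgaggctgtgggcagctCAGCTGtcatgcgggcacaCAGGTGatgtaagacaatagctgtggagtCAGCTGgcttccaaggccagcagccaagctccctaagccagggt
Chrng promoter, chr1:87205561-87205810, plus strand: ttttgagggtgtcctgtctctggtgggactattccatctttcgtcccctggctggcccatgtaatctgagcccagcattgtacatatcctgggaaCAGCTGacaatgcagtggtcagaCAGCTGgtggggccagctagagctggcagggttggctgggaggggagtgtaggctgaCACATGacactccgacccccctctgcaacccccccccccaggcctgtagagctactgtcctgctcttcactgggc
Chrne promoter, chr11:70619195-70619444, minus strand: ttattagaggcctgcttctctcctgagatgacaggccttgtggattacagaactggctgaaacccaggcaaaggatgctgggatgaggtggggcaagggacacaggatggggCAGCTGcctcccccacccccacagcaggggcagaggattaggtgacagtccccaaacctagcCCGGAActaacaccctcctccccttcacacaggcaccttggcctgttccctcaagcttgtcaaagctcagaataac
Musk promoter, chr4:58285712-58285961, plus strand: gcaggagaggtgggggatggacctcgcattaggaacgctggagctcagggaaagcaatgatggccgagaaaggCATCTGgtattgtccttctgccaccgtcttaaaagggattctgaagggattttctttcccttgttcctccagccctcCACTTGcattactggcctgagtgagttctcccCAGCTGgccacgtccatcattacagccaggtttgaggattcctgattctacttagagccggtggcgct
The promoters of Chrna1, Chrng, Musk and Chrnb1 each held 3 E-boxes, and that of Chrne held 1, with an N-box starting 76 bases before the start. Each of the 7 matched genes had at least 1 E-box, counting for Dok7 either of its promoters. Of all 32851 promoters of this length, 66.2% held at least 1 E-box and 12.2% held 3 or more, while 12% held an N-box on either strand. A match is a run of letters and was not tested as a binding site.

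Chrna1, the alpha subunit that carries most of the acetylcholine-binding site, was higher at 72 hr in both cultures. Signals are given as normalized log2 values, and changes were called at an adjusted p under 0.01 from limma over all genes. In dispersed myoblasts its log2 signal was 16.21, 16.12, 16.25 and 16.28 on 48-hr arrays 1 to 4 and 16.60, 16.52, 16.71 and 16.98 on 72-hr arrays 5 to 8. In myofiber-associated myoblasts it was 15.51, 15.84, 15.69 and 15.58 on 48-hr arrays 7 to 10 and 17.16, 16.89, 17.25 and 16.79 on 72-hr arrays 1 to 4. Within each culture every 72-hr array lay above every 48-hr array, and the myofiber-associated 48-hr arrays were the lowest of the 16. The rise was 0.49 in dispersed myoblasts (SE 0.098, adjusted p = 0.00848) and 1.37 in myofiber-associated myoblasts (SE 0.13, adjusted p = 0.00106). The difference between these changes, dispersed minus myofiber-associated, was -0.88 (SE 0.17, adjusted p = 0.00526), past the threshold of 0.01. A second Chrna1 probe rose by 0.79 (adjusted p = 0.00165) and 1.81 (adjusted p = 0.00238), and its difference of changes of -1.02 did not pass (adjusted p = 0.0225 over all 28197 probes tested). In bulk RNA, fewer cells of a type and less RNA per cell cannot be told apart, here and below.

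Chrng, the fetal gamma subunit, rose in both cultures. Its log2 signal in dispersed myoblasts was 8.19, 7.55, 8.06 and 8.10 on 48-hr arrays 1 to 4 and 8.78, 8.74, 8.80 and 9.16 on 72-hr arrays 5 to 8. In myofiber-associated myoblasts it was 6.98, 7.30, 7.41 and 6.79 on 48-hr arrays 7 to 10 and 9.33, 8.34, 9.41 and 8.51 on 72-hr arrays 1 to 4. The times did not overlap in either culture, and the myofiber-associated 72-hr arrays fell into a higher pair, 1 and 3, and a lower pair, 2 and 4. The rise was 0.90 in dispersed (SE 0.15, adjusted p = 0.00441) and 1.78 in myofiber-associated myoblasts (SE 0.27, adjusted p = 0.00525). The difference between the changes, -0.88 (SE 0.33, 95% confidence interval -1.59 to -0.17), did not pass the threshold (adjusted p = 0.0809).

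Chrne, the adult epsilon subunit, was not well above background on any of the 16 arrays, so it has no measured level here. Its normalized log2 signals, 1.80 to 1.89 and 1.77 to 2.64 in dispersed and 2.63 to 3.80 and 2.07 to 3.31 in myofiber-associated myoblasts at 48 and 72 hr, are therefore bounds and not levels. Chrng was well above background on all 16 arrays. The Chrng minus Chrne difference within an array moved by 2.56 from 48 to 72 hr in myofiber-associated myoblasts (two-sided exact permutation test, p = 0.0286, which is the minimum with 4 arrays a group). In dispersed myoblasts it moved by 0.53 (exact permutation test, two-sided p = 0.286), which did not pass. With Chrne at background, these shifts combine the Chrng change with background values.

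Chrnb1 and Chrnd, the beta and delta subunits, lay higher at 72 hr on average but passed the test in neither culture. Chrnd, next to Chrng on chr1, ran from 13.3 to 13.6 and 13.6 to 14.2 in dispersed and from 13.3 to 14.1 and 14.4 to 14.7 in myofiber-associated myoblasts at 48 and 72 hr. Its change was 0.38 (SE 0.14, adjusted p = 0.0804) in dispersed and 0.83 (SE 0.18, adjusted p = 0.0179) in myofiber-associated myoblasts, where the times did not overlap. Chrnb1 changed by 0.33 (SE 0.098, adjusted p = 0.0405) and 0.56 (SE 0.17, adjusted p = 0.0454), its arrays ranging from 10.5 to 11.6 over the 4 groups. Thus all 4 measured subunits had positive changes in both cultures, of which those of Chrna1 and Chrng passed the test.

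**Figure D1:**
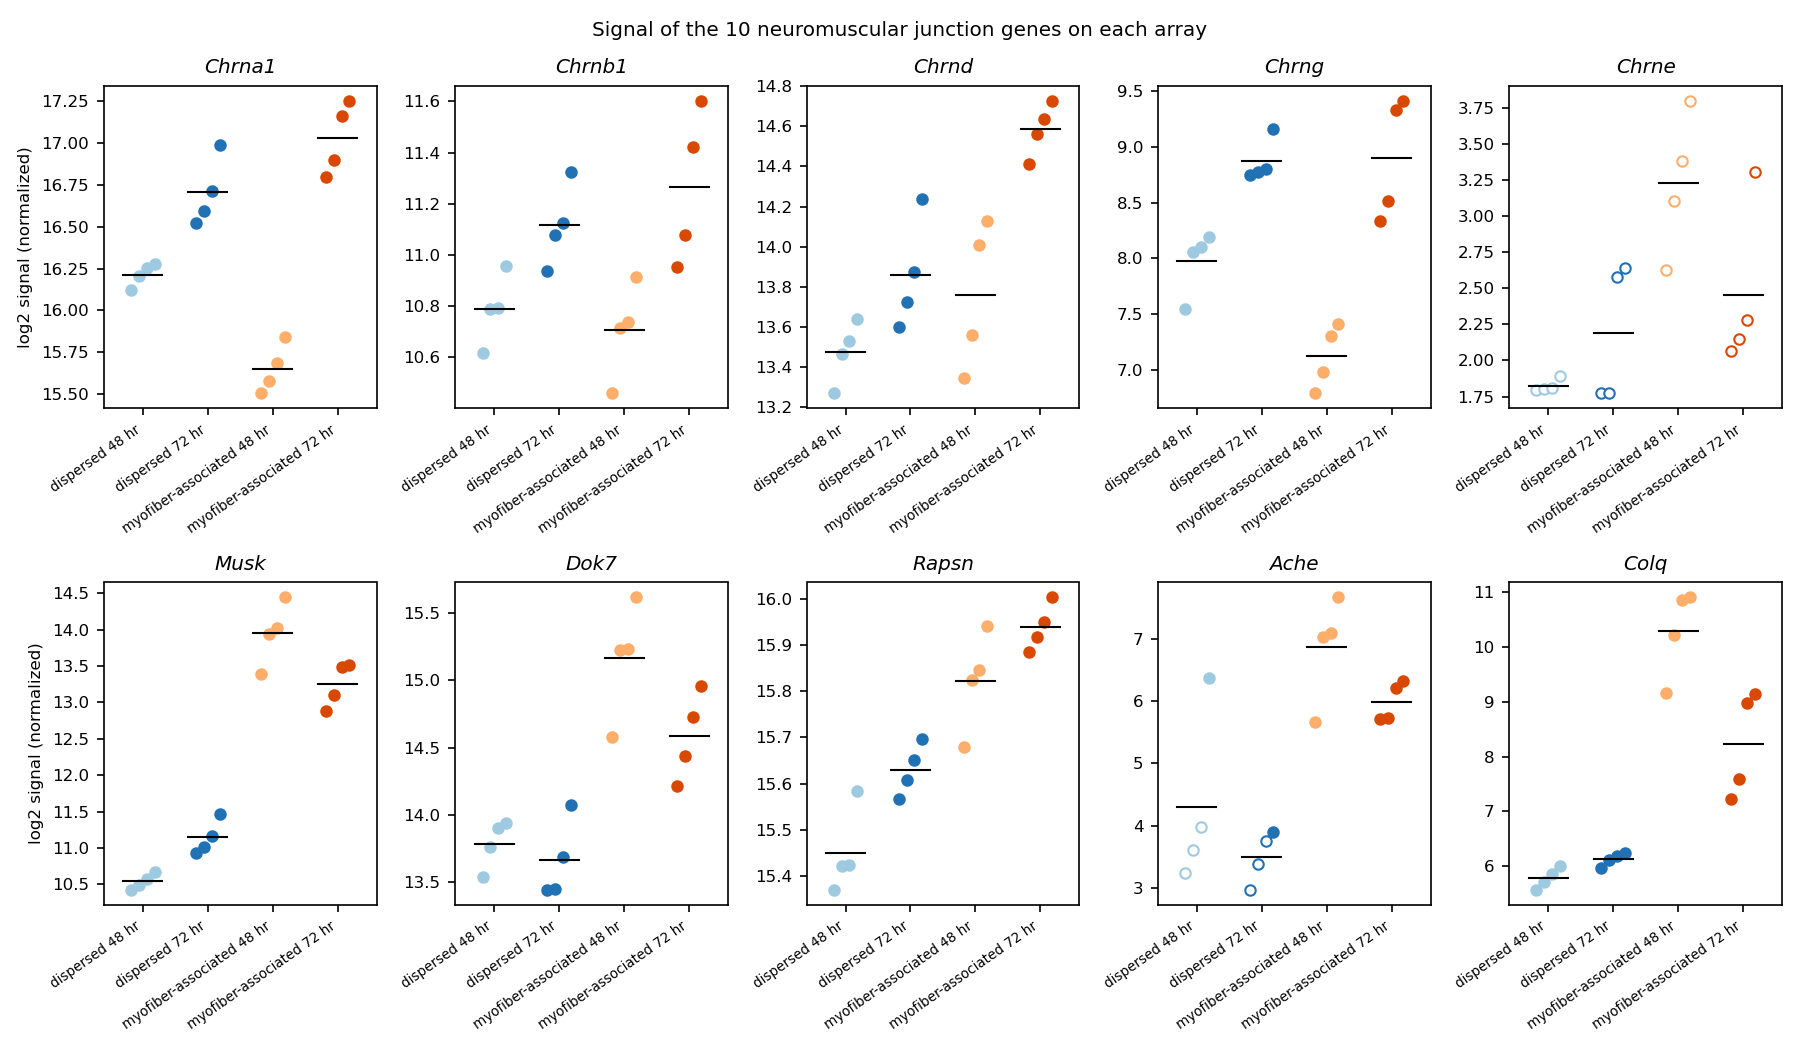
Normalized log2 signal (vertical axis, a separate scale in each panel) of the 10 genes on each of the 16 arrays, with 4 arrays in each group of culture and time on the horizontal axis. Filled points are well above background, open points are not, and the line is the group mean. The points of Chrna1 and Chrng sit higher at 72 than at 48 hr in both cultures, those of Musk and Colq sit higher in myofiber-associated myoblasts, and all 16 Chrne points are open.

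Musk, the agrin-activated kinase, rose with time in dispersed myoblasts, and its change in myofiber-associated myoblasts had the opposite sign without passing the test. In dispersed myoblasts its log2 signal was 10.67, 10.49, 10.43 and 10.57 on 48-hr arrays 1 to 4 and 11.01, 10.94, 11.16 and 11.47 on 72-hr arrays 5 to 8. In myofiber-associated myoblasts it was 13.94, 14.02, 14.45 and 13.39 on 48-hr arrays 7 to 10 and 13.10, 13.49, 12.88 and 13.51 on 72-hr arrays 1 to 4. The dispersed times were apart and the myofiber-associated times overlapped, and every myofiber-associated array lay above every dispersed array. Musk rose by 0.60 in dispersed myoblasts (SE 0.12, adjusted p = 0.00717), and its change of -0.70 in myofiber-associated myoblasts did not pass (SE 0.24, adjusted p = 0.0631). The difference of the changes, dispersed minus myofiber-associated, was 1.31 (SE 0.28) and passed narrowly (adjusted p = 0.00975). Tested over all probes, the same difference did not pass (adjusted p = 0.0102).

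Dok7 and Rapsn, which act beside MuSK, passed the test with time in neither culture. Dok7 signals were 13.5 to 13.9 and 13.4 to 14.1 in dispersed and 14.6 to 15.6 and 14.2 to 15.0 in myofiber-associated myoblasts at 48 and 72 hr. The changes were -0.12 (SE 0.15, adjusted p = 0.598) and -0.58 (SE 0.24, adjusted p = 0.107), so neither passed. A second Dok7 probe changed by 0.24 in dispersed (adjusted p = 0.151) and by -1.19 in myofiber-associated cells (adjusted p = 0.0269), so the probes disagreed in sign in dispersed myoblasts. Rapsn varied little, with dispersed arrays between 15.37 and 15.70 and myofiber-associated means of 15.82 at 48 hr and 15.94 at 72 hr. Its changes were 0.18 (SE 0.057, adjusted p = 0.0496) in dispersed and 0.12 (SE 0.087, adjusted p = 0.339) in myofiber-associated myoblasts.

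Colq, the collagen tail of acetylcholinesterase, was far brighter in myofiber-associated than in dispersed myoblasts by its brighter probe. Its log2 signal in dispersed myoblasts was 6.01, 5.71, 5.57 and 5.86 on 48-hr arrays 1 to 4 and 6.24, 5.97, 6.11 and 6.19 on 72-hr arrays 5 to 8. In myofiber-associated myoblasts it was 10.91, 10.21, 10.86 and 9.15 on 48-hr arrays 7 to 10 and 7.58, 8.97, 7.22 and 9.14 on 72-hr arrays 1 to 4. The cultures did not overlap, and the myofiber-associated times were apart by the narrow gap between 9.14 and 9.15. The change with time of -2.05 in myofiber-associated myoblasts (SE 0.54, adjusted p = 0.0317) and of 0.34 in dispersed myoblasts (SE 0.10, adjusted p = 0.0423) did not pass, nor did their difference of 2.39 (SE 0.59, adjusted p = 0.0195). A second Colq probe had a median log2 signal of 4.46 and failed the filter, and it was well above background on 8 of 8 myofiber-associated but on 1 and 2 of 4 dispersed arrays at 48 and 72 hr. Its means were 3.92 and 4.85 in dispersed and 5.14 and 4.54 in myofiber-associated myoblasts, so at 72 hr the dispersed mean was higher. There dispersed array 8 read 7.31 against 3.94 to 4.19 on the others.

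Ache, the esterase itself, was at or near background in dispersed myoblasts and measurable in myofiber-associated myoblasts. Its brighter probe was well above background on 1 of 4 dispersed arrays at each time, array 4 at 48 hr reading 6.37 against 3.23 to 3.98 on the others. On the myofiber-associated arrays it read 5.66 to 7.68 at 48 hr and 5.71 to 6.33 at 72 hr, well above background on all 8. Neither change with time passed, at -0.80 (SE 0.64, adjusted p = 0.403) in dispersed and -0.88 (SE 0.39, adjusted p = 0.129) in myofiber-associated myoblasts. A second Ache probe was not well above background on any dispersed array, with means of 2.64 and 3.27 at 48 and 72 hr against 7.59 and 6.58 in myofiber-associated myoblasts.

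Read together, 3 of the 9 tested genes rose from 48 to 72 hr in dispersed myoblasts (Chrna1, Chrng, Musk) and none fell, where 13.7% of all genes passed, 7.37% as rises and 6.35% as falls. In myofiber-associated myoblasts 2 of 9 rose (Chrna1, Chrng) and none fell, where 5.48% of all genes passed, 3.74% as rises and 1.75% as falls. In 1 fit of all 16 arrays Chrnb1 and Chrnd also passed as rises (adjusted p = 0.00586 and 0.00164) and Colq as a fall (0.00165), and with the deposited ratios Chrnd passed as a rise (0.0024) and Musk (0.0087), Ache (0.00519) and Colq (0.00898) as falls. The groups did not overlap for 3 of the 9 in dispersed and 5 of the 9 in myofiber-associated myoblasts, against 31.2% and 26.3% of all genes. The difference of the changes passed for 2 of 9, Chrna1 and Musk, in opposite directions, where 3.45% of all genes passed, 1.08% with a positive and 2.37% with a negative difference. The median change of the 9 genes was 0.34 in dispersed and 0.12 in myofiber-associated myoblasts, beside 0.02 and 0.06 over all genes. Over the 12 member probes tested, 4, 3 and 1 passed in dispersed, myofiber-associated and their difference, where 12.4%, 5.42% and 3.12% of all probes did. Among 8 markers of differentiating muscle, 4 rose and 2 fell in dispersed and 2 rose in myofiber-associated myoblasts, and their part in the receptor changes was not tested.

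The calls with time in dispersed myoblasts were close to the threshold. With no filter on low signal the adjusted p became 0.021 for Chrna1, 0.0129 for Chrng and 0.0187 for Musk, and in 1 fit of all 16 arrays 0.0153, 0.0255 and 0.0677. With 1 array left out at a time, Chrng lost its call without 48-hr array 3 or 4 or 72-hr array 5, 6 or 7 (adjusted p 0.0105 to 0.0128), and Chrna1 and Musk lost theirs without 48-hr array 1, 2, 3 or 4 or 72-hr array 5 or 7 (0.0155 to 0.0277 and 0.0118 to 0.0238). In myofiber-associated myoblasts Chrna1 kept its call in all 8 such fits (adjusted p 0.00125 to 0.00613). Chrng lost its call there without 72-hr array 1 or 3 or 48-hr array 7, 8 or 9 (0.0123 to 0.0219), with the slide row as a block (0.0117) and with no filter on low signal (0.0152). Of 16 such fits of the difference, Chrna1 passed in 6, the adjusted p being 0.0107 to 0.0143 without myofiber-associated 72-hr array 1 or 3, myofiber-associated 48-hr array 7 or 9, dispersed 72-hr array 5, 6 or 7 or dispersed 48-hr array 1, 3 or 4. Musk passed in 2 of the 16, without myofiber-associated 72-hr array 4 or 48-hr array 10, and had an adjusted p of 0.0105 to 0.0246 without any one of the others. The Colq difference passed without the same 2 arrays (0.00614 and 0.00322). It also passed with the deposited ratios (2.43, adjusted p = 0.00389), which are tested without the 48-hr spread. With those ratios Chrna1 lost its call in dispersed myoblasts (0.0116). There Ache passed as a fall (-0.93, adjusted p = 0.00313) and Colq as a rise (0.23, adjusted p = 0.00934). Ache was at or near background in dispersed myoblasts, and its change in the main fit ran from -1.16 to -0.11 with 1 array left out. The second Ache probe changed by 0.64 there, which did not pass (adjusted p = 0.375 over all probes).

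**Figure D2:**
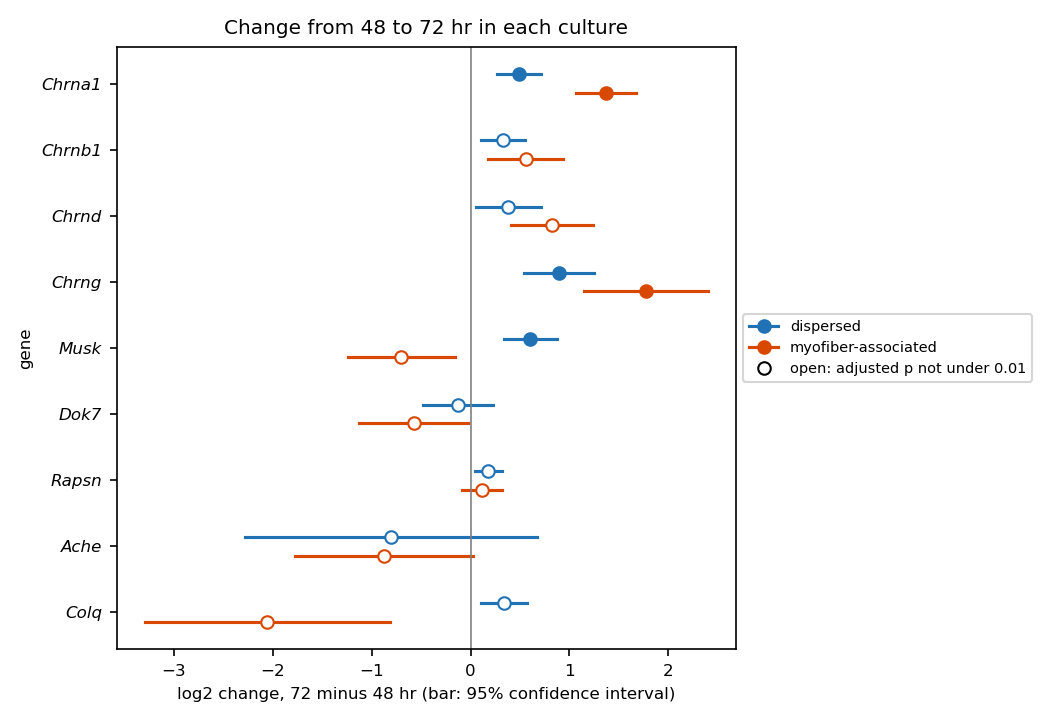
Change from 48 to 72 hr (log2, horizontal axis) of the 9 tested genes in dispersed and myofiber-associated myoblasts, 4 arrays a group, with 95% confidence intervals from limma. Filled points passed an adjusted p under 0.01. The 4 receptor subunit genes lie to the right of 0 in both cultures, and Musk and Colq lie on opposite sides of 0 in the 2 cultures.

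Between the cultures at the same time, the brightest probes of Musk, Dok7, Rapsn and Colq were higher in myofiber-associated myoblasts at both times. The receptor subunits were not uniformly so. At 48 hr 4 of 9 genes were higher and 2 lower, where 43.2% of all genes passed, 16.1% as higher and 27% as lower. Over the 12 member probes tested, 9 passed at 48 hr and 7 at 72 hr, where 41.1% and 26% of all probes did. These counts include 1 Ache probe at 48 hr and 2 at 72 hr, which passed the filter on low signal only through the myofiber-associated arrays and so had to differ. Colq was higher by 4.50 (SE 0.36, adjusted p = 3.18e-05; 2.86 with the mean of its 2 probes), Musk by 3.41 (SE 0.20, adjusted p = 6.49e-06), Dok7 by 1.38 (SE 0.21, adjusted p = 0.000717) and Rapsn by 0.37 (SE 0.084, adjusted p = 0.00516). Chrna1 was lower by -0.56 (SE 0.089, adjusted p = 0.00099) and Chrng by -0.85 (SE 0.18, adjusted p = 0.00413), the reverse of the other called genes. With the slide row as a block, Chrng (adjusted p = 0.0135) and Rapsn (0.0193) lost their calls at 48 hr. Chrnb1 differed by -0.08 (95% confidence interval -0.35 to 0.18) and Chrnd by 0.28 (-0.13 to 0.69), neither past the threshold. At 48 hr the brighter Ache probe, which passed the filter only through the myofiber-associated arrays, is given as a description. Its means were 6.87 in myofiber-associated and 4.30 in dispersed myoblasts, dispersed array 4 overlapping the myofiber-associated range. Their difference of 2.57 depended on the processing, being 1.08 with normexp background correction, 2.76 with scaling to the 75th percentile and 3.76 with the mean of both probes. The second Ache probe was at least 30.9-fold higher at 48 hr and at least 9.91-fold higher at 72 hr, given as a description, with bounds set against its own dispersed signal, which exceeded the lowest signal that was well above background.

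At 72 hr 6 of 9 genes were higher in myofiber-associated myoblasts and none was lower, where 27.1% of all genes passed, 11.5% as higher and 15.6% as lower. Colq was higher by 2.10 (SE 0.42, adjusted p = 0.00505), Musk by 2.10 (SE 0.17, adjusted p = 8.53e-05), Dok7 by 0.93 (SE 0.20, adjusted p = 0.00631), Chrnd by 0.73 (SE 0.14, adjusted p = 0.00425) and Rapsn by 0.31 (SE 0.060, adjusted p = 0.00428). Ache is the other gene of the 6, but it passed the filter only through the myofiber-associated arrays and had 1 of 4 dispersed arrays well above background, so its means of 5.99 in myofiber-associated and 3.50 in dispersed myoblasts are a description. Their difference was 2.49, and 0.78 with normexp background correction. Chrng, lower in myofiber-associated myoblasts at 48 hr, differed by 0.03 at 72 hr (95% confidence interval -0.56 to 0.62), and Chrna1 by 0.32 (0.01 to 0.64, adjusted p = 0.0867). The groups did not overlap for 6 of 9 genes at each time, against 56% of all genes at 48 hr and 46.4% at 72 hr. Without 1 array, the calls of Chrna1, Musk, Dok7 and Colq at 48 hr and of Musk at 72 hr were kept in all 8 fits. At 48 hr Chrng lost its call without myofiber-associated array 7 or dispersed array 1, 3 or 4 (adjusted p 0.0139 to 0.0144), and Rapsn without myofiber-associated array 7, 8 or 9 or dispersed array 2, 3 or 4 (0.0121 to 0.0202). The Ache difference at 48 hr, a description, ran from 2.21 to 3.26 over such fits. At 72 hr Chrnd lost its call without myofiber-associated array 1, 3 or 4 or dispersed array 5, 6 or 7 (0.0101 to 0.0158), Dok7 without myofiber-associated array 1, 2 or 4 or dispersed array 5, 6 or 7 (0.0123 to 0.0214), Rapsn without myofiber-associated array 1 or dispersed array 6, 7 or 8 (0.0116 to 0.0182) and Colq without myofiber-associated array 2 or dispersed array 5, 6, 7 or 8 (0.0128 to 0.0172). With the mean of both Colq probes the 72-hr difference was 0.90 (adjusted p = 0.114). The second Dok7 probe was higher by 0.86 at 72 hr, which did not pass (adjusted p = 0.0135 over all probes). At 48 hr it was higher by 2.29 (adjusted p = 0.000106). With the slide row as a block, Dok7 (adjusted p = 0.0129), Rapsn (0.0159) and Colq (0.0194) lost their calls at 72 hr. No filter on low signal also cost Dok7 (0.0144) and Colq (0.0123) their calls at 72 hr and Chrng (0.0103) its call at 48 hr. Under normexp background correction the 72-hr Colq difference was 1.46 and did not pass (adjusted p = 0.0102).

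**Figure D3:**
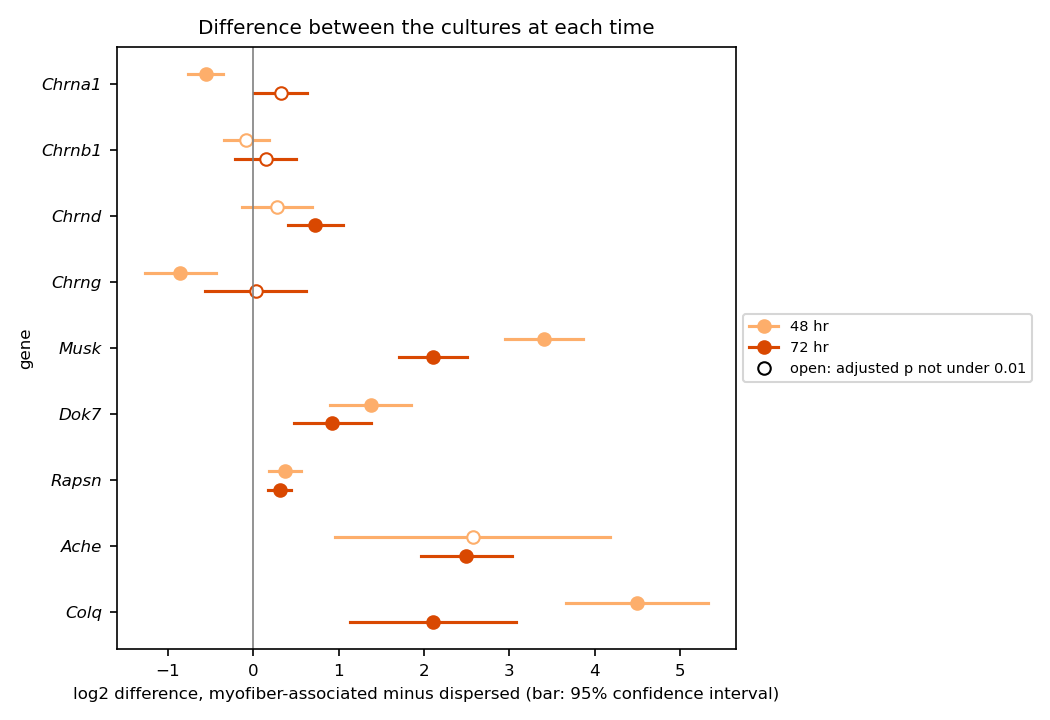
Difference between the cultures (myofiber-associated minus dispersed, log2, horizontal axis) of the 9 tested genes at 48 and 72 hr, 4 arrays a group, with 95% confidence intervals. Filled points passed an adjusted p under 0.01. Colq and Musk lie farthest to the right at 48 hr, Chrna1 and Chrng lie left of 0 at 48 hr only, and the Ache points compare with dispersed readings at or near background.

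Fiber markers moved with the same groups. All 12 fiber markers were higher in myofiber-associated myoblasts at 48 hr and 11 of 12 at 72 hr, with a median difference of 6.39 at 48 hr. Within the myofiber-associated arrays at 72 hr, the log2 of their summed signal was 18.0 and 17.6 on arrays 1 and 3 and 19.4 and 19.8 on arrays 2 and 4. Arrays 2 and 4 were also those with the higher Colq (8.97 and 9.14 against 7.58 and 7.22), Musk, Dok7 and Ache signals, and those with the lower Chrng (8.34 and 8.51 against 9.33 and 9.41), Chrna1 and Chrnb1 signals. At 48 hr the pooled array 10 had the lowest fiber marker sum, 19.9 against 20.2 to 20.6, and the lowest Colq, Musk, Dok7, Ache, Rapsn, Chrng and Chrnb1 signals of its group. In dispersed myoblasts 8 of 12 fiber markers fell with time and 1 rose, while Colq was no lower at 72 hr. Of 8 markers of differentiating muscle, 6 passed at 48 hr as brighter in the myofiber-associated culture and 1 as dimmer (median difference 3.67). At 72 hr 5 passed as brighter and none as dimmer (median difference 2.39). Mean Myog was 14.3 in myofiber-associated against 6.05 in dispersed myoblasts at 48 hr, and 13.7 against 9.96 at 72 hr. Mean Myh3 at 48 hr was 2.95, not well above background, against 6.41. Endothelial markers also differed, 8 of 9 being lower in myofiber-associated myoblasts at each time and 8 and 6 of 9 falling with time in dispersed and myofiber-associated myoblasts, and so did Schwann cell markers, 6 and 5 of 8 being lower in myofiber-associated myoblasts at 48 and 72 hr and 5 of 8 falling with time in dispersed myoblasts. Of 8 fibroblast markers, 3 fell with time in myofiber-associated myoblasts, where the log2 of their summed signal ran from 16.6 to 17.7 at 48 hr and from 15.6 to 16.3 at 72 hr, and 4 were lower than in dispersed myoblasts at 72 hr. Of 7 tested leukocyte markers, none passed with time in myofiber-associated myoblasts, although all 7 changes were below 0 (median -1.35). In dispersed myoblasts 3 fell (median change of the 7, -0.76). The summed signal of the 8 leukocyte markers listed ran from 14.4 to 14.9 at 48 hr and from 14.0 to 14.3 at 72 hr in myofiber-associated myoblasts. The part of these markers in the junction gene differences was not tested.

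**Figure D4:**
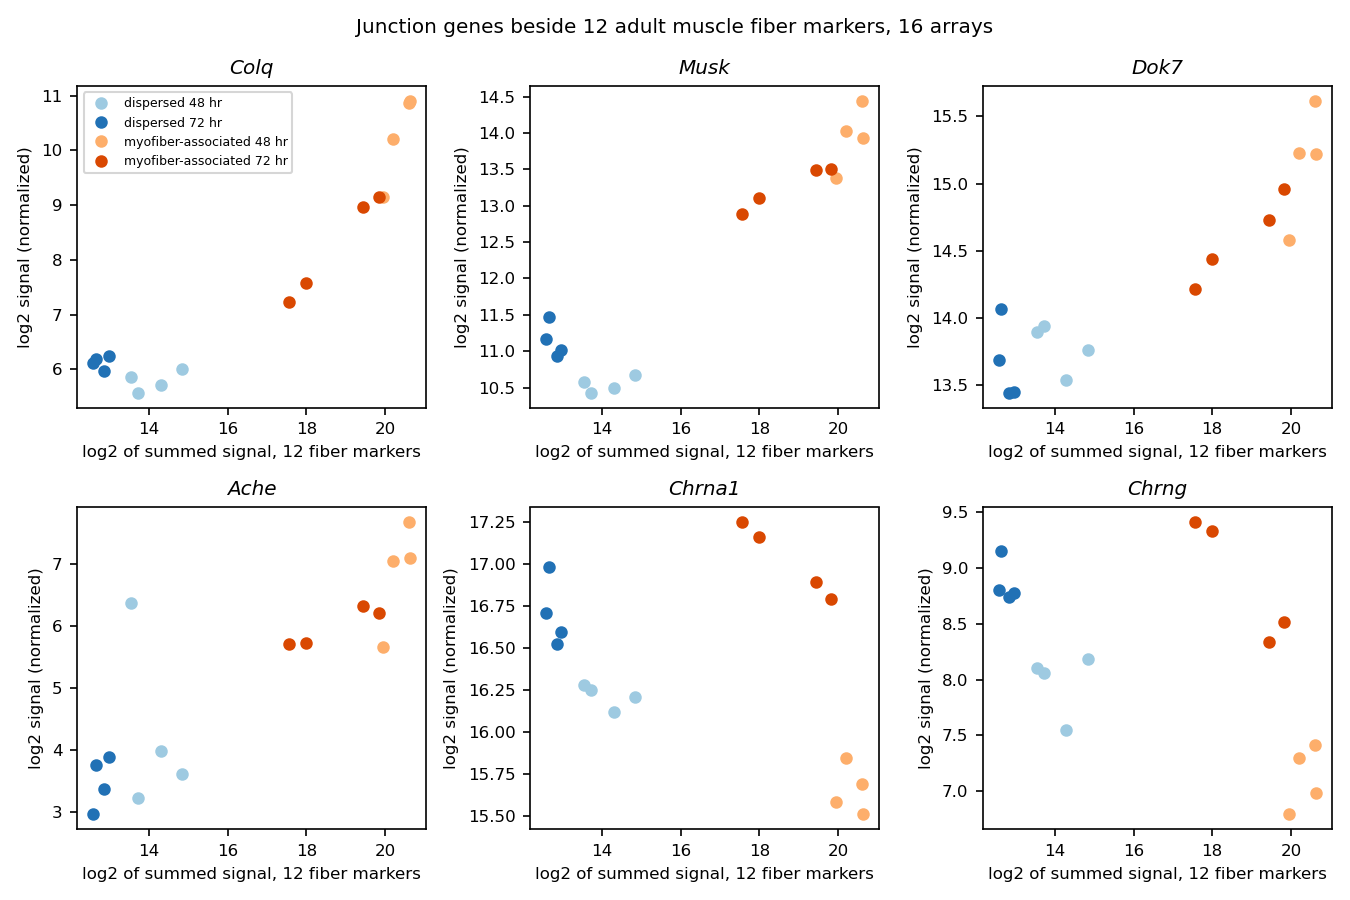
Log2 signal of 6 junction genes (vertical axis, a separate scale in each panel) against the log2 of the summed signal of 12 adult fiber markers (horizontal axis) on 16 arrays, colored by group. Myofiber-associated arrays at 48 hr lie to the right, at 19.9 to 20.6. Within the myofiber-associated arrays at 72 hr, the 2 arrays with the higher fiber sum have higher Colq and Musk and lower Chrna1 and Chrng.

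Other genes of the junction were followed as a list of 80, of which 64 were tested. In dispersed myoblasts 9 rose and 5 fell, in myofiber-associated myoblasts 4 rose and 1 fell, and the difference of the changes passed for 3. Over all genes 13.7%, 5.48% and 3.45% passed in these comparisons, shares that also stand beside the smaller lists below. Their median changes were 0.03 and 0.10, beside 0.02 and 0.06 over all genes. Prima1, a membrane anchor of acetylcholinesterase, rose in both cultures. The rise was 1.55 in dispersed (SE 0.19, adjusted p = 0.000951) and 1.83 in myofiber-associated cells (SE 0.28, adjusted p = 0.00496). By group its mean log2 signal went from 5.46 to 7.01 and from 6.58 to 8.41. Of the genes of receptor assembly, Tmem35, a nicotinic receptor chaperone, rose by 1.21 in dispersed myoblasts (adjusted p = 0.00303), and 2 of 9 of its list rose in all. Tmem35 means also went up in myofiber-associated myoblasts, from 9.06 to 10.78, where none of the 9 passed.

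Of 18 tested genes of agrin and MuSK signaling, 3 rose and 2 fell in dispersed myoblasts and 1 rose in myofiber-associated myoblasts. Dok1, an adaptor related to Dok7, rose by 0.62 (adjusted p = 0.00506) and Shc4, a Shc-family adaptor that binds MuSK, fell by 0.76 (adjusted p = 0.0099) in dispersed myoblasts. Dok1 means also went up in myofiber-associated myoblasts, from 10.97 to 11.54 with the times apart, while Shc4 means were 12.22 and 12.23. Neither passed there. Lrp4, the agrin receptor, rose by 0.81 in myofiber-associated cells (SE 0.13, adjusted p = 0.00648), its mean going from 8.06 to 8.86. For Lrp4 the difference of the changes did not pass (-0.69, adjusted p = 0.0569). Clasp2, which captures microtubules at receptor clusters, went from a mean of 5.23 to 5.42 in dispersed and from 6.15 to 4.99 in myofiber-associated myoblasts. Neither Clasp2 change passed (adjusted p = 0.181 and 0.0137), but their difference of 1.34 did (adjusted p = 0.00668). With normexp background correction it was 0.59 (adjusted p = 0.0188).

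Of 17 tested genes of the postsynaptic cytoskeleton and basal lamina, 1 rose and 1 fell in each culture. Dag1, the dystroglycan gene, fell by 0.41 in dispersed myoblasts (adjusted p = 0.00547). Its myofiber-associated means went from 12.14 to 11.52, which did not pass. In myofiber-associated myoblasts Lama4, a laminin chain of the synaptic cleft, fell by 1.98 (SE 0.31, adjusted p = 0.00528), and Lama5, another laminin chain, rose by 0.89 (SE 0.16, adjusted p = 0.00927). Dispersed means went from 11.62 to 11.02 for Lama4, with the times apart, and from 13.13 to 12.72 for Lama5, neither past the threshold. Lama5 differed between the cultures in its change (-1.30, adjusted p = 0.00334), as did Utrn, the synaptic relative of dystrophin (-1.94, adjusted p = 0.00251). Utrn means went from 8.89 to 8.34 in dispersed (adjusted p = 0.0109) and from 7.71 to 9.09 in myofiber-associated myoblasts (adjusted p = 0.0125), neither past the threshold. Among 5 tested nicotinic subunits of other tissues, Chrna9 fell by 0.47 in dispersed myoblasts (adjusted p = 0.00243), with means of 6.26 and 5.78 there against 12.2 and 10.0 in myofiber-associated myoblasts. Of 12 genes of neuregulin signaling and synaptic transcription, 2 rose and 1 fell in dispersed and none passed in myofiber-associated myoblasts. With 1 array left out, the calls of Prima1 and Chrna9 in dispersed myoblasts and of Utrn and Lama5 for the difference were kept in all fits. Chrna9 lost its call in 1 fit of all 16 arrays (adjusted p = 0.633) and with the mean of its probes (0.0374), and the Utrn difference was -1.06 with the mean of its probes (0.0105). With 1 array left out, Lama5 in myofiber-associated myoblasts passed in none of 8 fits (adjusted p 0.0109 to 0.034). In dispersed myoblasts Tmem35 lost its call without 48-hr array 3 or 72-hr array 6 (0.0103 and 0.0108). Dok1 passed only without 48-hr array 2 or 72-hr array 8, Shc4 only without 48-hr array 3 or 72-hr array 8, and Dag1 only without 72-hr array 5 or 8, with an adjusted p of 0.0137 to 0.0314 for the 3 genes otherwise. In myofiber-associated myoblasts Prima1 and Lama4 passed only without 72-hr array 4 or 48-hr array 10, and Lrp4 only without 48-hr array 7 or 10, with 0.0109 to 0.0248 otherwise. The Clasp2 difference passed only without myofiber-associated 72-hr array 4, myofiber-associated 48-hr array 7, 8 or 10 or dispersed 72-hr array 8, with 0.0105 to 0.0178 otherwise.

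The genes whose log2 values followed Chrng most closely were sought over all tested genes outside the 10, by the root mean square difference of values centered on their mean over the 16 arrays. They were Zfp704 (0.24), Chn1 (0.25), St8sia2 (0.27), Kctd12 (0.27) and Opn3 (0.27). St8sia2, a polysialyltransferase, went from a mean of 8.82 to 9.36 in dispersed and from 7.90 to 9.74 in myofiber-associated myoblasts. Chn1, a Rac-regulating chimaerin, went from 7.81 to 8.58 and from 7.05 to 9.04. All 5 shared with Chrng the order of group means from myofiber-associated 48 hr, the lowest, through dispersed 48 hr and dispersed 72 hr to myofiber-associated 72 hr, although the last pair of Chrng means differed by 0.03 with overlapping arrays. Because the genes were picked for closeness to Chrng on these same arrays, the shared order follows largely from the choice. The likeness rests on 16 arrays of 4 groups and is a description.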

How the data were processed

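RNA from 16 samples of mouse myoblasts was hybridized to one-color Agilent arrays. The scanner files that the authors deposited hold spot intensity, background-corrected by the scanner software. The authors also deposited a table of log2 ratios of the 72-hr arrays (loess and quantile normalization per their methods), used here only as an alternative. Its columns correlated with the same arrays here (r 0.975 to 0.987, slopes 0.90 to 0.94, medians -0.0005 to 0.069), and its exact scale is unknown.

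Spots marked as outliers were left out. For each culture, the averaged 48-hr arrays served as the baseline of a loess normalization (span 0.3, 4 iterations) of the log2 processed signal, followed by quantile normalization of all 16 arrays. Identical probes were averaged and the brightest probe stood for a gene. Genes entered the tests at a median log2 signal of 5 or more. Comparisons used limma 3.58.1 in R 4.3.3, two-sided, each within its own groups of 4, p-values being adjusted by Benjamini-Hochberg across the 20317 genes and called under 0.01. Probes were tested likewise over 28197. Chrng minus Chrne was compared by an exact permutation test. The code was tested on simulated data. Probe sequences other than that of Chrng are not reported here. Probe positions are on mm9 as in the files, and promoters on GRCm38.p6 from RefSeq. Nothing in the labels says that samples with a number are from separate cultures beyond the mice named, so p-values measure the spread between these samples. The number of arrays limits the precision.

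The 10 genes, the pathway and marker lists and the tests were chosen with earlier results of these data known. All 10 genes were named. Of other pathway genes, up to 3 with the largest rise and up to 3 with the largest fall were named in each time comparison and in the difference, among those past the threshold whose groups did not overlap and that were well above background throughout at least 1 group, and the 5 genes nearest to Chrng were named. Alternatives were background correction, normalization, the filter, the probe rule, the slide row as a block, 1 fit of all 16 arrays, the deposited ratios and leaving out each array.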

Additional observations from a re-analysis of the deposited data

Results flagged for a closer look

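In dispersed myoblasts at 72 hr, Chrng on array 8 read 9.16, and its gap to the nearest of the other 3 arrays was 0.855 of the range of the group, above Dixon's 95% critical value for 4 samples. This was 1 of 46 probe and group pairs examined, where chance gives about 1 in 20.

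The change from 48 to 72 hr differed between the cultures by a test of the difference itself (limma, dispersed minus myofiber-associated) for 2 of the 9 tested genes and for 3 other junction genes. It was -0.88 for Chrna1 and 1.31 for Musk. It was 1.34 for Clasp2, -1.94 for Utrn and -1.30 for Lama5.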

How the results depend on the processing

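Of 360 values of the 9 tested genes under settings other than leaving out an array, 320 kept their direction and side of the threshold, 27 lost the call, 12 gained it and 1 changed sign, and over 432 values with 1 array left out these were 336, 77, 5 and 14. For the named pathway genes 92 of 113 and 71 of 128 values kept their call, the others losing it with none changing sign. The cause was not tested for any of the following values.

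With no filter on low signal, the genes called were 467 in myofiber-associated cells and 411 for the difference of the changes (1114 and 701 as reported), and of the 9 genes 0 were called in dispersed, 1 in myofiber-associated and 0 for the difference (3, 2 and 2 as reported). The 75th percentile scaling, quantile normalization alone, a filter for signals well above background, averaging the probes of a gene and the slide row as a block each left 1 of the 9 called for the difference. Chrna1 lost its call with averaged probes (adjusted p = 0.0108). Musk lost its call under the scaling (0.011), quantile normalization alone (0.01), the filter (0.0115) and the row block (0.0172). The row block also gave 570 genes and 1 of the 9 in myofiber-associated myoblasts, and 3 of the 9 and 4 member probes at 72 hr between cultures (6 and 7 as reported). With 1 fit of all 16 arrays, dispersed myoblasts had 999 genes (2789 as reported), 0 of the 9 and 0 member probes called (3 and 4 as reported), and myofiber-associated myoblasts 5782 genes, 5 of the 9 and 7 member probes (3 as reported). The deposited ratios, tested against 0 and so without the 48-hr spread, gave 3787 genes and 6 of the 9 in myofiber-associated cells and 3823 genes for the difference. With normexp (offset 50), 2 member probes were called for the difference (1 as reported), and Chrng minus Chrne in dispersed myoblasts moved by 0.69 (exact permutation test, p = 0.0286). With the mean of all probes, Dok7 in dispersed myoblasts changed by 0.056 (adjusted p = 0.782).

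With 1 array left out, the genes called ranged from 1665 to 2505 in dispersed, 232 to 1990 in myofiber-associated, 295 to 2368 for the difference, 6375 to 11144 at 48 hr and 3312 to 5627 at 72 hr. The members called ranged from 0 to 3, 1 to 3, 0 to 3, 4 to 7 and 2 to 5 in that order, and the member probes from 1 to 4, 1 to 5, 0 to 5, 6 to 10 and 3 to 6. Chrng minus Chrne moved by 2.26 to 2.97 in myofiber-associated (exact permutation p 0.0286 to 0.0571) and 0.29 to 0.72 in dispersed myoblasts (0.114 to 0.543). Uncalled values that changed sign were the Ache difference (-0.28 to 0.77), Chrng between cultures at 72 hr (-0.14 to 0.22) and Chrnb1 at 48 hr (-0.15 to 0.000883).

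No paired analysis was possible because the groups compared share fewer than 2 replicate numbers. Chrng and Chrne had 1 probe each, so other probe pairs and the mean over probes gave no value for their difference. Values below background, as for Chrne and dispersed Ache, are bounds.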
